A study of Mus musculus with 6 samples.

Results

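Neutrophils were sought among single nuclei from photothrombotic (PT) brain lesions, a model in which a light-activated dye closes cortical vessels. A nucleus was taken as a neutrophil when its barcode held at least 500 unique molecular identifiers (UMIs, each standing for 1 captured RNA molecule) and under 5% mitochondrial UMIs, showed at least 3 of the 7 genes S100a8, S100a9, Cxcr2, Hdc, Nlrp12, Hcar2 and Il1f9, and showed no UMI of Cd3e, Pax5, Col1a2 or Cd163, which mark T cells, B cells, fibroblasts and border macrophages. This rule found 139 nuclei among the 64591 barcodes that passed the UMI and mitochondrial limits, out of 67360 deposited barcodes. Nuclei were thus selected on the measured UMIs of these genes, so their levels in these nuclei are a description and carry no test.

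All 6 libraries came from PT-injured mice, taken 7 or 21 days post injury (dpi) under 3 conditions. Ctrl mice were wild-type with no treatment in the labels. ADWA11 mice were wild-type and received ADWA11, an antibody that blocks integrin αvβ8, an activator of latent TGFβ, from the day of injury and then weekly until tissue was taken. Tgfbr2-cKO mice carried Col1a2(creER) and floxed Tgfbr2, so that loss of the TGFβ receptor was directed to fibroblasts through the Col1a2 driver, while neutrophils were not the intended target. The creER driver needs tamoxifen. The study's methods state in general that conditional-knockout controls were induced with tamoxifen where relevant and that ADWA11 was paired with an IgG1 isotype control, but not whether the wild-type Ctrl and ADWA11 mice of these libraries received either. Each library pooled lesions from 1 male and 1 female mouse and no condition was repeated, so no comparison below has a replicate check, and all intervals are exact 95% intervals for counting error only.

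Neutrophils are short-lived granulocytes made in the bone marrow, which reach injured tissue early by following chemokines through Cxcr2 and complement and formyl peptide products through further receptors. They carry preformed granule proteins, make reactive oxygen through the phagocyte oxidase, and are cleared by macrophages after death. S100a8 and S100a9 encode the subunits of calprotectin, a major protein of neutrophil cytosol. Neutrophils hold little RNA, and a nuclear library captures only part of it.

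S100a8 (chromosome 3, 90668978 to 90670035, plus strand) and S100a9 (chromosome 3, 90692632 to 90695721, minus strand, mm10) are protein-coding neighbours, and the few nuclei with very high levels of either held many UMIs of both. The 250 bases before each annotated RefSeq start are shown because the summed UMIs of this pair ran from 0 to 2692 per neutrophil, as described below. The gene positions above are from GENCODE, and for S100a8 they begin inside its window. All distances below count from the RefSeq start. Capitals mark matches on either strand to TATAAA (the TATA box), TTNNGNAA (letters bound by C/EBP factors) and GAGGAAG (letters bound by PU.1), read 5′ to 3′ on each gene's own strand in GRCm38.p6, at chr3:90668821-90669070 for S100a8 and chr3:90695722-90695971 for S100a9.
S100a8: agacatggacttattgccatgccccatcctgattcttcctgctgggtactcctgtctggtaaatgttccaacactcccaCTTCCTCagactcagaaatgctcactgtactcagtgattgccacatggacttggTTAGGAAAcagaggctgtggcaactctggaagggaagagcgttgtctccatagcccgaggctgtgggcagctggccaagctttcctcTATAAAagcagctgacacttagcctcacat
S100a9: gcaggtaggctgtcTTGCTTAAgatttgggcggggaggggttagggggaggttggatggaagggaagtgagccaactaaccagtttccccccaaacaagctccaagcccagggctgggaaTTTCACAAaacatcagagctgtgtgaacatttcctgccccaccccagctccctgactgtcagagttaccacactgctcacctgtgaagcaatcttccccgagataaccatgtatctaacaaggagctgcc
In S100a8 the TATA match began 30 bases before the start, the C/EBP letters 117 bases before it, and the PU.1 letters, on the other strand, 171 bases before it. In S100a9 the C/EBP letters occurred on the other strand, 236 and 130 bases before the start. Such matches are common, since TATAAA occurred in 12.4%, TTNNGNAA in 36.8% and GAGGAAG in 10.6% of 32851 RefSeq windows of the same length.

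Neutrophils were rare in every library. At 7 dpi the rule found 4 of 8376 nuclei in the Ctrl lesion (0.0478%, 0.0130 to 0.122), 4 of 11307 in the ADWA11 lesion (0.0354%, 0.00964 to 0.0906) and 14 of 11259 in the Tgfbr2-cKO lesion (0.124%, 0.0680 to 0.209). At 21 dpi it found 12 of 13674 nuclei in the Ctrl lesion (0.0878%, 0.0454 to 0.153), 61 of 13108 in the ADWA11 lesion (0.465%, 0.356 to 0.597) and 44 of 6867 in the Tgfbr2-cKO lesion (0.641%, 0.466 to 0.859). Both perturbed lesions at 21 dpi therefore held larger neutrophil shares than the other 4 libraries, and their intervals did not overlap those of the others.

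**Figure D1:**
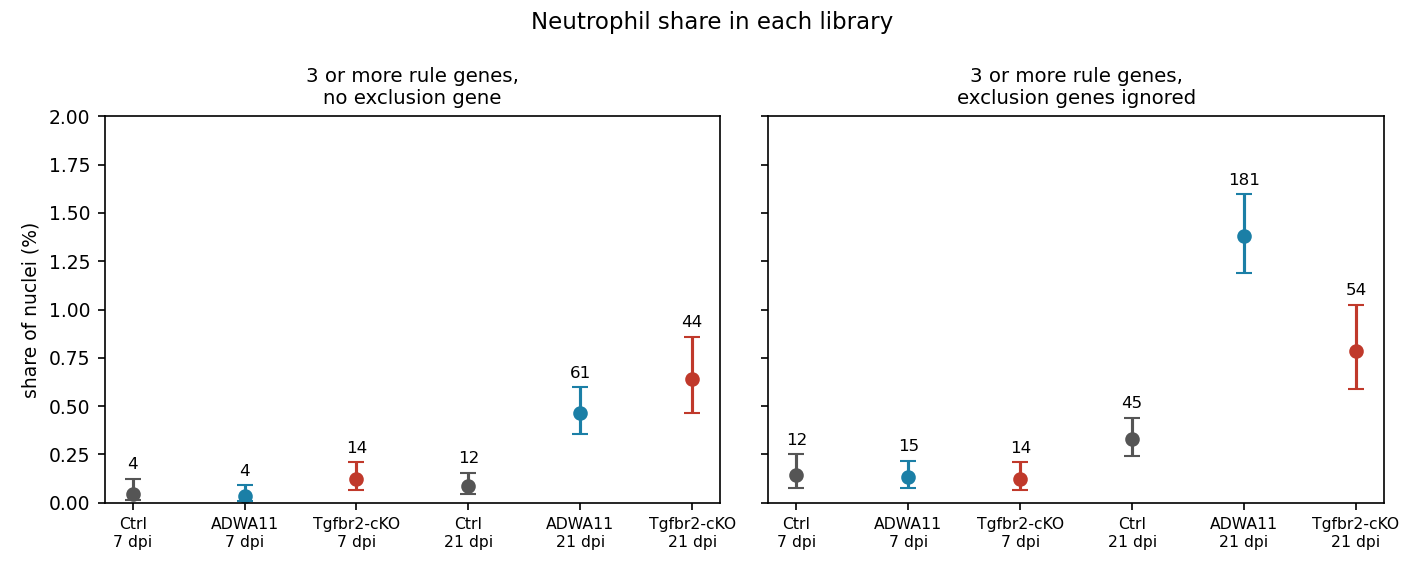
Neutrophil share of passing nuclei (percent, vertical axis) in each of the 6 libraries, by the rule and without its 4 exclusion genes, with exact binomial 95% intervals as bars. By the rule, the 21 dpi ADWA11 and Tgfbr2-cKO libraries stand at 0.465% and 0.641%, above the other 4 libraries, and without the exclusion genes the ADWA11 library is highest at 1.38%.

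The Tgfbr2-cKO share at 21 dpi was 7.30-fold the Ctrl share (3.79 to 15.2) and the ADWA11 share was 5.30-fold the Ctrl share (2.83 to 10.8). These 2 comparisons share the Ctrl library. Taken over nuclei free of the 4 exclusion genes, which matches the denominator to the rule, the Tgfbr2-cKO share was 1.23-fold the Ctrl share (0.641 to 2.57), no longer distinguishable from 1, the ADWA11 share was 2.77-fold (1.47 to 5.64), and the Ctrl share at 21 dpi was 4.01-fold that at 7 dpi (1.22 to 17.1). Between 7 and 21 dpi the share was 13.2-fold higher in ADWA11 (4.88 to 49.8) and 5.15-fold higher in Tgfbr2-cKO (2.77 to 10.2), where 9 of the 14 nuclei of the 7 dpi arm carried neuron markers as described below, while the Ctrl ratio of 1.84 (0.557 to 7.82) had an interval that included 1. At 7 dpi the ratios to Ctrl were 2.60 for Tgfbr2-cKO (0.818 to 10.9) and 0.741 for ADWA11 (0.138 to 3.98), and over all nuclei neither was distinguishable from 1 with 4 nuclei in Ctrl. The Tgfbr2-cKO ratio at 7 dpi depended on the setting. It was 6.84-fold (2.15 to 28.5) with nuclei of neural classes left out of the denominator, which kept all 14 nuclei in the numerator, 4.38-fold (1.26 to 19.1) over Ptprc-positive nuclei, 2.87-fold (1.22 to 7.80) with at least 2 of the 7 genes and 8.19-fold (1.23 to 348) at a mitochondrial limit of 1%, where Ctrl held 1 nucleus. It was 0.819-fold (0.257 to 3.42) over nuclei free of exclusion genes.

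The size of these differences depended on a single exclusion gene, Col1a2, which encodes a chain of type I collagen. Without the 4 exclusion genes, 321 nuclei showed at least 3 of the 7 genes, and the exclusion removed 182 of them (56.7%), 176 through Col1a2 and 78 of those with a single Col1a2 UMI. The removal was uneven, at 66.7% of such nuclei in 7 dpi Ctrl, 73.3% in 7 dpi ADWA11, 73.3% in 21 dpi Ctrl and 66.3% in 21 dpi ADWA11, against 0 of 14 in 7 dpi Tgfbr2-cKO and 18.5% in 21 dpi Tgfbr2-cKO. Col1a2 UMIs were similarly uneven in nuclei of a type that should lack the gene. Among neuron-marker nuclei, those with at least 3 neuron markers, fewer markers of any other class and fewer than 3 genes of the rule, 63.4% held a Col1a2 UMI in 7 dpi Ctrl, 65.7% in 7 dpi ADWA11, 70.0% in 21 dpi Ctrl and 49.0% in 21 dpi ADWA11, against 4.29% and 6.68% in the Tgfbr2-cKO libraries at 7 and 21 dpi. Fibroblast-marker nuclei, defined in the same way as all marker classes below, made up 2.89% and 9.79% of the Tgfbr2-cKO libraries and 24.4% to 45.3% of the other 4.

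The removed and the kept nuclei were close in neutrophil genes that the rule did not use, and apart in doublet calls. At least 3 of 22 such neutrophil genes were seen in 92.9% of the removed (88.1 to 96.1) and 89.2% of the kept nuclei (82.8 to 93.8). Csf3r, the receptor for the granulocyte growth factor G-CSF, was detected in 91.8% of the removed and 92.8% of the kept nuclei. Il1r2, the decoy receptor for interleukin 1, was detected in 58.2% and 59.7%, Il1b in 68.7% and 72.7%, and Mxd1, a MYC antagonist of maturing granulocytes, in 69.8% and 70.5%. Single libraries differed in both directions, with Il1r2 in 69.7% of 33 removed and 33.3% of 12 kept nuclei of 21 dpi Ctrl, and in 0 of 8 removed and 3 of 4 kept nuclei of 7 dpi Ctrl. At least 3 macrophage and monocyte markers were seen in 48.4% of the removed (40.9 to 55.9) and 36.0% of the kept nuclei (28.0 to 44.5), with overlapping intervals, and 13 of the 14 markers had higher shares in the removed nuclei. Single markers ranged from the mannose receptor gene Mrc1, in 28.6% of the removed and 9.35% of the kept nuclei, to Cx3cr1, in 15.9% and 14.4%, and Spp1, in 33.5% and 36.7%. Doublets were called for 25.8% of the removed (19.6 to 32.8) and 9.35% of the kept nuclei (5.07 to 15.5), and the part of these in the removal was not tested. The removed nuclei had a median of 1809.5 UMIs and the kept nuclei 1483.

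With all 321 nuclei, the shares were 0.143% in 7 dpi Ctrl, 0.133% in 7 dpi ADWA11 and 0.124% in 7 dpi Tgfbr2-cKO. In the same order they were 0.329% (0.240 to 0.440), 1.38% (1.19 to 1.60) and 0.786% (0.591 to 1.02) at 21 dpi. The 21 dpi excess over Ctrl remained for both perturbations, at 2.39-fold for Tgfbr2-cKO (1.58 to 3.63) and 4.20-fold for ADWA11 (3.01 to 5.95), and the order of the 2 perturbed lesions turned, with Tgfbr2-cKO at 0.569-fold the ADWA11 share (0.412 to 0.776) in place of 1.38-fold by the rule (0.913 to 2.06). The Ctrl increase from 7 to 21 dpi was 2.30-fold (1.20 to 4.77) on this wider set. At 7 dpi the 3 conditions held 12, 15 and 14 such nuclei, and the Tgfbr2-cKO share was 0.868-fold the Ctrl share (0.373 to 2.05).

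Shares were also taken of nuclei with a UMI of Ptprc, which encodes the leukocyte surface protein CD45, since the libraries held different numbers of neural and stromal nuclei. On the wider set, neutrophils were 0.230% of Ptprc-positive nuclei in 7 dpi Ctrl, 0.219% in 7 dpi ADWA11 and 0.367% in 7 dpi Tgfbr2-cKO, and 0.823%, 1.91% and 1.86% in the same order at 21 dpi. On this denominator both perturbed lesions at 21 dpi stood 2.33-fold (ADWA11, 1.66 to 3.33) and 2.25-fold (Tgfbr2-cKO, 1.48 to 3.45) above Ctrl, and their mutual ratio of 0.969 (0.698 to 1.33) did not separate them.

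Because each library held a male and a female mouse, nuclei with a Y-linked UMI and no Xist, or with Xist and no Y-linked UMI, were assigned to the mouse of origin. Of the 139 neutrophils, 61 could be assigned. In 21 dpi Tgfbr2-cKO, 23 of 54 nuclei of the wider set could be assigned, against 5330 of 6867 passing nuclei. The shares per mouse in that library thus leave out more neutrophils than other nuclei, and whether this loss differed by sex was not tested. In 21 dpi ADWA11, the wider set made up 0.535% of female nuclei (19 of 3550, 0.323 to 0.835) and 0.839% of male nuclei (60 of 7155, 0.641 to 1.08). In 21 dpi Tgfbr2-cKO it made up 0.106% of female nuclei (3 of 2829, 0.0219 to 0.310) and 0.7997% of male nuclei (20 of 2501, 0.489 to 1.23). The 21 dpi Ctrl mice stood at 0.144% (10 of 6925 female nuclei) and 0.203% (7 of 3448 male nuclei). The intervals of the Ctrl mice were 0.0693 to 0.265 (female) and 0.0817 to 0.418 (male), so the Tgfbr2-cKO male mouse stood above both beyond counting error, while the value of the Tgfbr2-cKO female mouse was below both with an interval that overlapped them. Both ADWA11 mice had values above both Ctrl mice. By the rule with its exclusion genes, the Tgfbr2-cKO female mouse held 2 of 2829 nuclei (0.0707%, 0.00856 to 0.255) and the male mouse 17 of 2501 (0.680%, 0.396 to 1.09), against 0.0144% (0.000366 to 0.0804) and 0.0580% (0.00703 to 0.209) in the Ctrl mice.

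**Figure D2:**
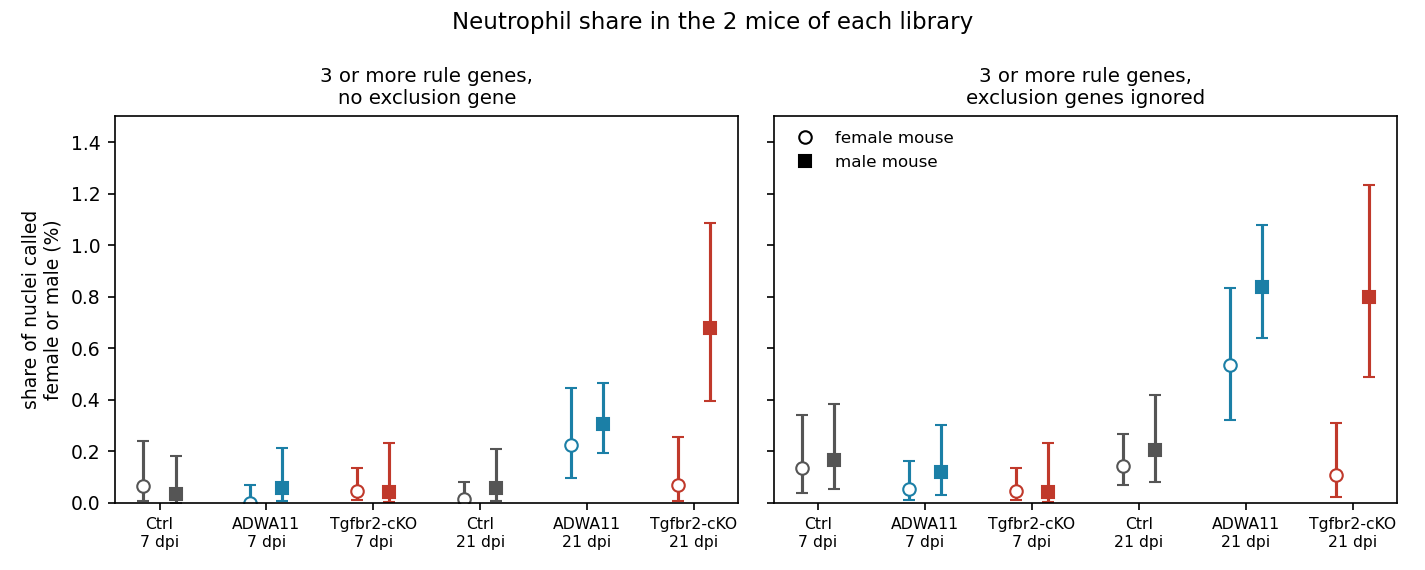
Neutrophil share (percent, vertical axis) of nuclei assigned to the female (open circles) and the male mouse (filled squares) of each library, by the rule on the left and without its 4 exclusion genes on the right, with exact binomial 95% intervals as bars. On the right at 21 dpi, the Tgfbr2-cKO male mouse stands at 0.7997% and the female mouse at 0.106%, while the ADWA11 mice stand at 0.839% and 0.535%.

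The label of neutrophil was checked on 22 neutrophil genes that the rule did not use. All 22 were detected in at least 1 of the 139 nuclei, and 124 nuclei (89.2%) showed at least 3 of them, or 111 of 125 (88.8%) without the 7 dpi Tgfbr2-cKO library, against 4.08% of 27547 macrophage-marker nuclei. Csf3r was present in 129 of the 139 nuclei but also in 58.1% of macrophage-marker nuclei, whereas Il1r2 was present in 59.7% against 0.766%, Trem1, an amplifier of myeloid activation, in 21.6% against 0.283%, and Mmp9, the gelatinase of tertiary granules, in 33.1% against 0.744%. Over the 125 nuclei without the 7 dpi Tgfbr2-cKO library the shares were 92.8% for Csf3r, 60.8% for Il1r2, 23.2% for Trem1 and 36.8% for Mmp9. Macrophage-marker nuclei were the deeper of both, with library medians between 3758.5 and 7051 UMIs against 1483 over the neutrophils. Ly6g, the surface antigen used to sort mouse neutrophils, was detected in 2 nuclei.

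Genes of granulocyte precursors and of other granulocytes were rarely detected. Mpo, Elane and Ctsg, the azurophil granule proteins made in promyelocytes, and the granulocyte precursor factors Cebpe and Gfi1 were at 0 of 139 nuclei, which allows a share of up to 2.16% of nuclei with a UMI each and, at a median of 1483 UMIs, does not limit how many express the gene. Of the same group, Prtn3 was seen in 4 nuclei and Ms4a3 in 1. The mast cell and basophil genes Cpa3, Ms4a2, Fcer1a, Mcpt8 and Mcpt4 and the eosinophil genes Epx and Prg2 were also at 0. Others were present, with the stem cell factor receptor gene Kit in 5 nuclei, Gata2 and Il4 in 1 each, the eotaxin receptor gene Ccr3 in 2, Ear1 in 1 and Siglecf, a surface receptor of eosinophils, in 12 (8.63%). Mki67, a marker of cycling cells, was detected in 3 nuclei, all in 7 dpi Tgfbr2-cKO. Over the 125 nuclei without that library Prtn3 was seen in 2 nuclei, Kit in 3 and Il4 in 0. Hdc, which encodes the histamine-forming enzyme and also marks basophils and mast cells, was seen in 80 nuclei.

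The nuclei of 7 dpi Tgfbr2-cKO were in part deep nuclei with neuron markers. Their median depth was 22623 UMIs, and 8 of the 14 held over 10000 UMIs, while the medians of the other 5 libraries lay between 1042.5 and 3090. At least 3 neuron markers were shown by 9 of them, at a median of 44807 UMIs, and by 59.1% of all passing nuclei of that library. The other 5 held 727 to 5263 UMIs, with a median of 1336. Csf3r was detected in 13 of the 14 and at least 3 of the 22 neutrophil genes in 13, and in 5 and 4 of the 5 with fewer neuron markers. Of the 14, 7 showed at least 3 macrophage markers and 6 were called doublets. Nuclei with at least 1000 UMIs were thinned at random to 1000 UMIs, exclusion genes included, so a nucleus could also enter the rule by losing an exclusion UMI. After this, 1 of 10856 nuclei in that library met the rule, against 2 of 7906 in 7 dpi Ctrl and 3 of 10914 in 7 dpi ADWA11. Nuclei under 1000 UMIs were left out, 403, 470 and 393 in the same order. These 14 nuclei meet the rule and are in every count over 139 nuclei, and counts over 125 nuclei leave them out. At 21 dpi the thinned shares were 0.0746% in Ctrl (9 nuclei), 0.324% in ADWA11 (41) and 0.474% in Tgfbr2-cKO (30), after leaving out 1605, 452 and 539 nuclei under 1000 UMIs. Before thinning, 7, 45 and 38 nuclei with at least 1000 UMIs met the rule in these libraries.

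Markers of other cells were present in part of the remaining nuclei. At least 3 of 14 macrophage and monocyte markers were seen in 0 of 4 nuclei of 7 dpi Ctrl, 3 of 4 of 7 dpi ADWA11, 2 of 12 of 21 dpi Ctrl, 20 of 61 of 21 dpi ADWA11 and 18 of 44 of 21 dpi Tgfbr2-cKO. The summed level of the 14 markers was 1378, 2529 and 1237 counts per 1000000 UMIs (CPM) in the 21 dpi Ctrl, ADWA11 and Tgfbr2-cKO neutrophils. Without nuclei that showed at least 3 markers of any other class, the 21 dpi shares were 0.0658% in Ctrl, 0.305% in ADWA11 and 0.349% in Tgfbr2-cKO. Doublets called by simulation were 13 of the 139 nuclei and 9.05% of all passing nuclei, and they were kept unless stated.

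At the edge of the rule, 61 neutrophils showed exactly 3 of the 7 genes, with Csf3r in 88.5% and Il1r2 in 47.5% of them, and 91 nuclei fell just outside with exactly 2, with Csf3r in 71.4% and Il1r2 in 35.2%. The 78 neutrophils with 4 or more showed Csf3r in 96.2% and Il1r2 in 69.2%. No nucleus with at least 3 of the genes was lost to the UMI minimum, and 4 were lost to the mitochondrial limit.

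Among the genes of the rule, S100a9 was detected in 119 of the 139 neutrophils and S100a8 in 98, followed by the chemokine receptor Cxcr2 in 87, Hdc in 80, the interleukin 36 gene Il1f9 in 70, the NOD-like receptor gene Nlrp12 in 52 and the hydroxycarboxylic acid receptor gene Hcar2 in 51. Over the 125 nuclei without the 7 dpi Tgfbr2-cKO library these were 107 for S100a9, 88 for S100a8, 84 for Cxcr2, 72 for Hdc, 63 for Il1f9, 49 for Nlrp12 and 43 for Hcar2. In macrophage-marker nuclei S100a8 was detected in 1.04% and S100a9 in 1.25%, with up to 3.78% for S100a9 in 21 dpi Tgfbr2-cKO. Both genes gave similar low shares in fibroblast-marker nuclei (0.828% and 1.04%). The 321 nuclei of the wider set, which were chosen in part on these genes, held 88.4% of all S100a8 and 88.3% of all S100a9 UMIs of the 6 libraries. By library these shares ran from 25.5% and 51.2% in 7 dpi ADWA11 to 94.5% and 94.7% in 21 dpi Tgfbr2-cKO. The latter library held 5040 of the 6227 S100a8 UMIs of the wider set.

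Outside the rule, the genes most raised over all other nuclei, as the mean CPM of the libraries, included Il1b, the inflammasome-processed cytokine, at 925-fold, Il1r2 at 608-fold, Trem1 at 499-fold, the neutrophil chemokine gene Cxcl2 at 466-fold and the schlafen gene Slfn4 at 408-fold. Each of these was seen in between 30 and 101 of the 139 nuclei. The mean weighs each library equally, so a library of 4 nuclei counts as much as a larger one. For Il1r2 the mean was 1636 CPM, with 5606 CPM from 26 UMIs in the 4 nuclei of 7 dpi ADWA11. Pooled over the 139 nuclei Il1r2 stood at 507 CPM. Larger ratios were printed for genes seen in few nuclei, such as Stfa2l1 in 15, Wfdc21 in 13 and Retnlg in 12, of which a single nucleus held 78.8% of the Retnlg UMIs. Hp, which encodes haptoglobin, was seen in 44 nuclei at 299-fold.

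The level of S100a8 and S100a9 split the neutrophils of 21 dpi Tgfbr2-cKO. Summed per nucleus, the pair had a median of 8.5 UMIs and a highest value of 2692 over its 44 neutrophils, with 11 nuclei (25.0%, 13.2 to 40.3) between 155 and 2692 and the other 33 at 32 or fewer. In 21 dpi ADWA11 the median was 3 UMIs, a single nucleus of 61 reached 335 and the next held 30. The 12 neutrophils of 21 dpi Ctrl had a median of 4.5 and a highest value of 19. The exclusion genes had removed a nucleus with 141 UMIs from 21 dpi Ctrl and one with 466 from 21 dpi ADWA11. At 7 dpi, the 4 Ctrl neutrophils held 262, 206, 11 and 5 UMIs, the 4 ADWA11 neutrophils held at most 8 and the 14 Tgfbr2-cKO nuclei at most 17.

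**Figure D3:**
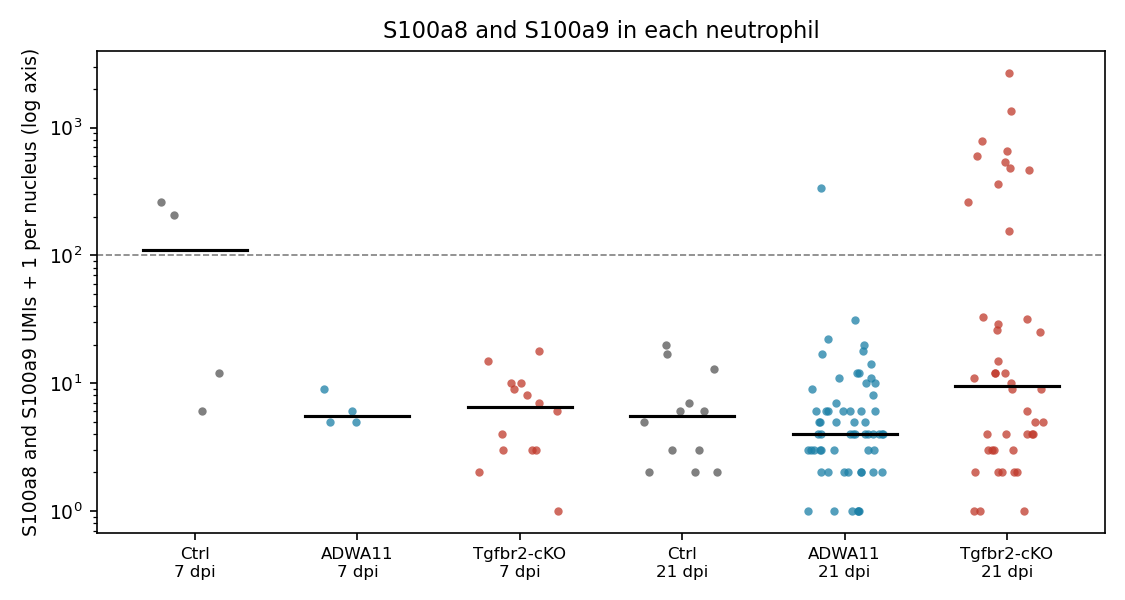
S100a8 and S100a9 UMIs plus 1, summed per neutrophil (vertical axis, log scale), with 1 point per nucleus of the 6 libraries, the library median as a black line and a dashed line at 100 UMIs. In 21 dpi Tgfbr2-cKO, 11 nuclei lie at 155 UMIs or more, separated from the other 33, which lie at 32 or fewer.

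The 11 high nuclei held 8324 of the 8587 S100a8 and S100a9 UMIs of the Tgfbr2-cKO neutrophils at 21 dpi (96.9%). They were deeper than the other 33, with a median of 6605 against 1512 UMIs. Retnlg, the resistin-like protein of circulating neutrophils, was detected in 7 of the 11 and in 1 of the 33. All 10 of the 11 that could be assigned came from the male mouse, against 7 male and 2 female among the other 33. Ribosomal protein genes made up 2.09% of their UMIs and 1.58% of those of the other 33, against 0.381% over all nuclei of that library, and 6 of the 11 showed at least 3 macrophage markers. What part depth or cytoplasmic RNA plays in this split was not tested. The wider set of that library held 13 nuclei with at least 100 UMIs of the pair, so 2 more had been removed by an exclusion gene, 1 of them with 1667 UMIs. Outside the wider set, no nucleus exceeded 78 UMIs in that library or 22 in the other 5.

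Detection of further genes was compared at 21 dpi, where 12 Ctrl, 61 ADWA11 and 44 Tgfbr2-cKO neutrophils were available, with median depths of 1106.5, 1296 and 1985.5 UMIs. Csf3r was seen in 11 of 12, 57 of 61 and 40 of 44 neutrophils, and the adhesion receptor gene Cd44 in 10, 47 and 32. Il1b was seen in 7 of 12 (58.3%, 27.7 to 84.8), 44 of 61 (72.1%, 59.2 to 82.9) and 34 of 44 (77.3%, 62.2 to 88.5), against 1.58% of macrophage-marker nuclei at 21 dpi. These genes were found at similar shares in the 3 conditions, within the breadth of the Ctrl intervals.

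**Figure D4:**
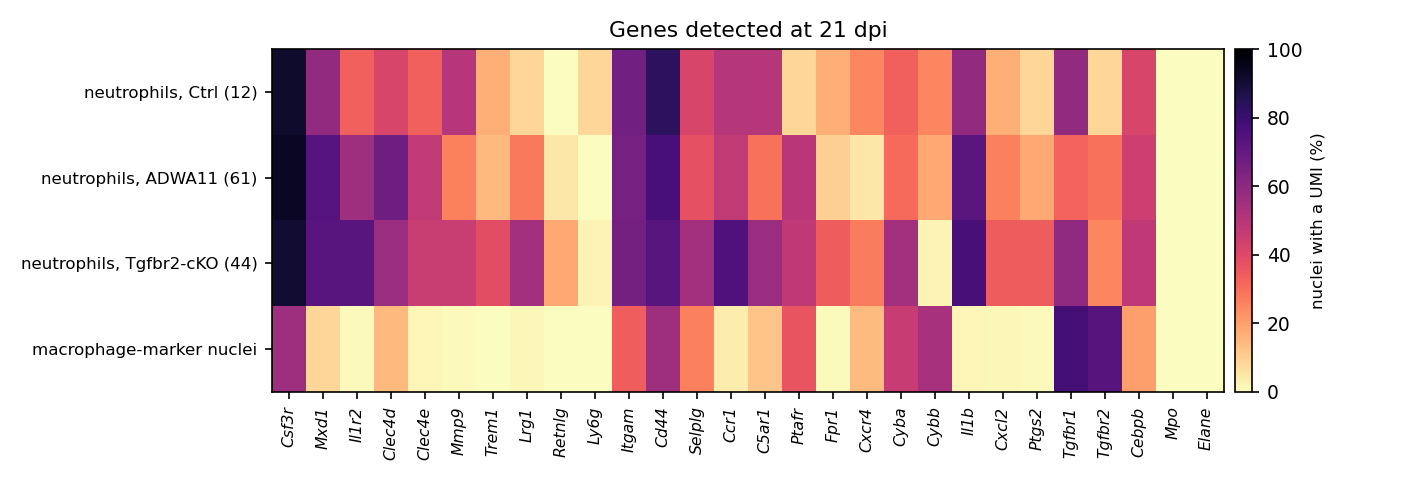
Heat map of the share of nuclei with at least 1 UMI (percent, colour) for genes in columns, in 21 dpi neutrophils of Ctrl, ADWA11 and Tgfbr2-cKO, with the number of nuclei in brackets, and in macrophage-marker nuclei of the same libraries. Csf3r lies above 90% in all 3 neutrophil rows, whereas Lrg1 runs from 8.33% in Ctrl to 54.5% in Tgfbr2-cKO and Cybb from 25.0% in Ctrl to 2.27% in Tgfbr2-cKO.

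Other genes were detected at less even shares. Lrg1, a secreted glycoprotein stored in neutrophil granules, was seen in 1 of 12 Ctrl, 17 of 61 ADWA11 (27.9%, 17.1 to 40.8) and 24 of 44 Tgfbr2-cKO neutrophils (54.5%, 38.8 to 69.6). Ptafr, the receptor for platelet-activating factor, was seen in 1 of 12, 30 of 61 and 21 of 44, and the intervals of Ctrl and both perturbed lesions overlapped. The Tgfbr2-cKO neutrophils were the deepest, and the part of depth in these shares was not tested.

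Levels in CPM scale by depth. Csf3r stood at 2893 CPM in Ctrl (2085 to 3911), 2345 in ADWA11 (2085 to 2629) and 1980 in Tgfbr2-cKO (1778 to 2199). On the wider set Csf3r stood at 1103 CPM (961 to 1260), 1298 (1216 to 1384) and 1357 (1227 to 1496) in the same order. The order of the conditions thus turned when the exclusion genes were ignored. Il1b stood at 1378 CPM in Ctrl (842 to 2128), 2944 in ADWA11 (2651 to 3260) and 2616 in Tgfbr2-cKO (2383 to 2866), but the 33 Tgfbr2-cKO neutrophils outside the 11 high nuclei stood at 1777 CPM, inside the Ctrl interval. Il1r2 gave 551 CPM in Ctrl (238 to 1086), 1460 in ADWA11 (1256 to 1687) and 1464 in Tgfbr2-cKO (1291 to 1654), with 918 CPM in those 33, again inside the Ctrl interval. On the wider set Il1r2 gave 312, 826 and 1050 CPM in Ctrl, ADWA11 and Tgfbr2-cKO. Cxcl2, which attracts further neutrophils, gave 207 CPM in Ctrl (42.6 to 604), 1516 in ADWA11 (1308 to 1747) and 1316 in Tgfbr2-cKO (1153 to 1497). Its ratio of Tgfbr2-cKO to ADWA11 was also lower without the high nuclei, as given below. The Ctrl values of these 3 genes rest on 20, 8 and 3 UMIs in 12 nuclei, and no ratio of gene levels to Ctrl was made below 30 nuclei.

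A comparison of gene levels was possible between the Tgfbr2-cKO and ADWA11 neutrophils of 21 dpi, for 2298 genes with at least 30 UMIs over both. Of these, 382 (16.6%) were at least 2-fold higher in Tgfbr2-cKO and 367 (16.0%) at least 2-fold lower, with a median log2 ratio over all genes of −0.21. Without the 11 high Tgfbr2-cKO nuclei and the 1 ADWA11 nucleus with at least 100 S100a8 and S100a9 UMIs, the median was 0.01 over 2292 genes, of which 326 (14.2%) were at least 2-fold higher and 250 (10.9%) lower. TMM scaling added 0.13 to every ratio and brought the median to −0.08, with 424 genes at least 2-fold higher and 295 lower. By the mean of CPM per nucleus 382 were higher and 290 lower, so the balance of both directions depended on the scaling. All ratios below are log2 ratios of CPM, Tgfbr2-cKO over ADWA11, and each is 1 library against 1 library. They cover only nuclei kept by the rule. Its exclusion genes had removed 66.3% of the wider set in ADWA11 and 18.5% in Tgfbr2-cKO, and the part of this in the ratios was not tested. Counts of list genes below are to be set against the shares over all genes, 16.6% higher and 16.0% lower. Without the high nuclei those shares are 14.2% and 10.9%. Ribosomal protein genes made up 1.84% of the UMIs of the Tgfbr2-cKO and 0.707% of those of the ADWA11 neutrophils, and 1.58% and 0.681% without the high nuclei, and their part in the ratios was not tested.

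Neutrophil identity genes stood higher in the Tgfbr2-cKO neutrophils. Of 18 such genes measured, 12 were at least 2-fold higher and 0 lower, with a median of 1.37. Wfdc21 (4.95, 3.06 to 8.02), Retnlg (4.38, 3.43 to 5.52), the protease inhibitor gene Slpi (3.29, 2.58 to 4.10) and the peptidoglycan receptor gene Pglyrp1 (2.66, 1.60 to 3.92) led the list. Over the neutrophils of all libraries, 1 nucleus held 78.8% of the Retnlg UMIs and 1 nucleus held 29.2% of the Wfdc21 UMIs. Both shares lie above the 20% limit set for genes named by the size of their ratio. The intervals cover counting error only and not the spread between nuclei. Without the high nuclei, 3 of the 18 were higher and 2 lower, shares near those of all genes, and the median was 0.22. Slpi then stood at 0.71 and Pglyrp1 at 0.30. Retnlg stood at −2.29, but was then seen in only 1 Tgfbr2-cKO and 2 ADWA11 nuclei. Lrg1 stood at 2.10 (1.45 to 2.83) with and 1.56 without them.

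Receptors for chemoattractants stood higher in the Tgfbr2-cKO neutrophils, in fewer cases without the high nuclei. Of 6 receptor genes other than Cxcr2, which the rule used, 5 were at least 2-fold higher and 0 lower, with a median of 1.495, and 3 were higher and 0 lower without the high nuclei, with a median of 0.87, where 14.2% of all genes were higher. Cxcr4, the receptor that retains neutrophils in the marrow and rises in aged ones, was highest at 2.72 (1.24 to 4.67), from 37 UMIs in 12 nuclei against 4 UMIs in 3. Ccr1, a receptor for CC chemokines, stood at 908 against 375 CPM (1.28, 0.80 to 1.78), the formyl peptide receptor gene Fpr1 at 340 against 104 CPM (1.71, 0.83 to 2.70), and C5ar1, the receptor for complement C5a, at 670 against 295 CPM (1.18, 0.64 to 1.76). Without the high nuclei the ratios were 2.33 for Cxcr4, 1.07 for Ccr1, 1.05 for Fpr1 and 0.56 for C5ar1. C5ar1 stood at 1309 CPM (788 to 2044) in the Ctrl neutrophils, above both. Cxcr2, a gene of the rule, gave 1095 against 590 CPM and Ptafr 488 against 399 CPM.

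**Figure D5:**
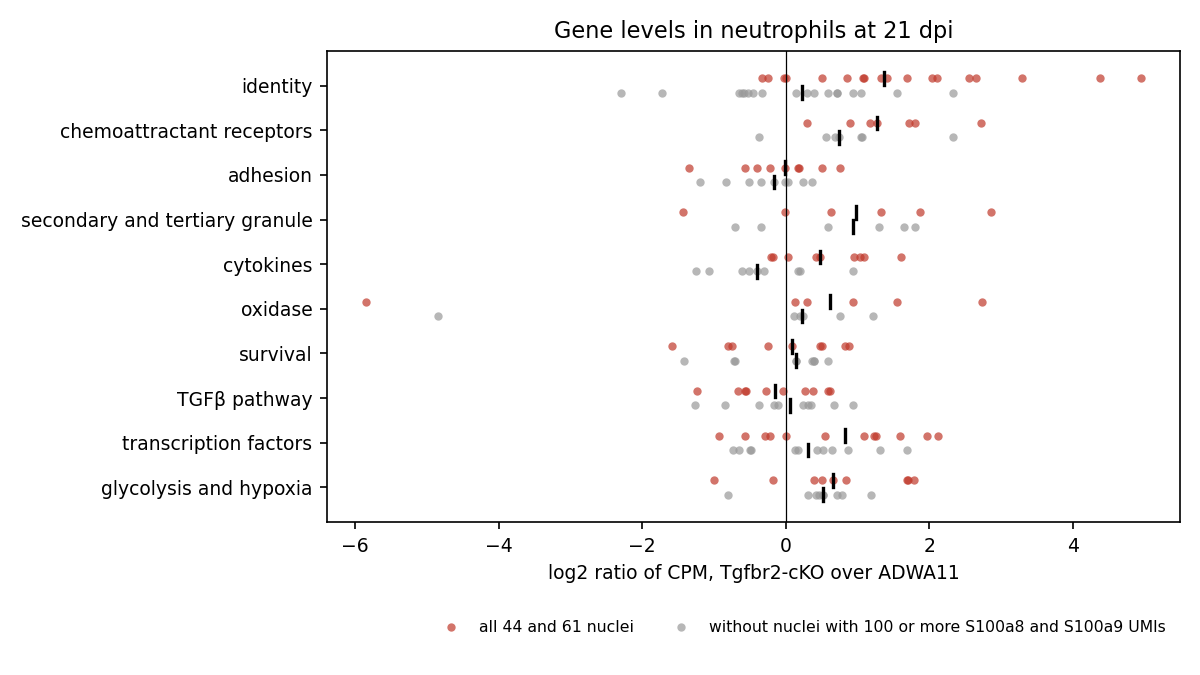
Log2 ratio of summed CPM, Tgfbr2-cKO over ADWA11 neutrophils at 21 dpi (horizontal axis), with 1 point per gene and 1 row per gene list, over all nuclei (red) and without nuclei with at least 100 S100a8 and S100a9 UMIs (grey), and with the list median as a black bar. Identity genes move towards 0 without those nuclei, with their median going from 1.37 to 0.22, while Cybb, the leftmost oxidase gene, stays low at −4.84. The receptor row includes Cxcr2, a gene of the rule.

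Granule genes outside the azurophil set were higher in 3 of 6 cases and lower in 1, where 16.6% and 16.0% of all genes were. Lcn2, the iron-sequestering lipocalin of specific granules, stood at 2.87 (1.82 to 4.13), and the collagenase gene Mmp8 at 1.87 (0.68 to 3.28) and Mmp9 at 1.32 (0.67 to 2.03). Ngp was lower at −1.42 (−2.62 to −0.31), from 11 against 21 UMIs. Without the high nuclei 3 of the 6 were higher and 0 lower with a median of 0.94, Lcn2 stood at 1.30, Mmp8 at 1.80, Mmp9 at 0.59 and Ngp at −0.70, and Chil3, a chitinase-like protein gene, went from 0.64 to 1.65. Adhesion genes differed little as a list, with 0 of 9 higher and 1 lower and a median of −0.01 that turned to 0.12 under TMM scaling, and Itgam, the αM integrin subunit, stood at 721 against 726 CPM. Itga4, a subunit of the VLA-4 integrin, was the lower gene at −1.35 (−2.10 to −0.62) and stood at −0.83 without the high nuclei.

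The subunits of the phagocyte oxidase diverged. Cybb, its catalytic subunit on the X chromosome, was seen in 1 of 44 Tgfbr2-cKO neutrophils with 1 UMI and in 11 of 61 ADWA11 neutrophils with 41 UMIs, a log2 ratio of −5.85 (−11.19 to −3.29) that was −4.84 without the high nuclei. The partner subunit Cyba was higher at 1.55 (0.98 to 2.17) and the GTPase gene Rac2 at 2.74 (1.80 to 3.85), which were 0.76 and 1.22 without the high nuclei, while Ncf1 was near 0 at 0.13. As a list, 2 of 6 measured oxidase genes were higher and 1 lower with a median of 0.62, where 16.6% and 16.0% of all genes were. Without the high nuclei 1 was higher and 1 lower with a median of 0.22, where 14.2% and 10.9% of all genes were. Cybb was also abundant in macrophage-marker nuclei, in 69.0% of those of 21 dpi ADWA11 and 30.4% of those of 21 dpi Tgfbr2-cKO. Of the 8 macrophage markers measured, 4 were at least 2-fold lower in Tgfbr2-cKO neutrophils, among them Mrc1 (1 against 46 UMIs) and Adgre1 (−2.04). In the other direction 1 was at least 2-fold higher, Spp1 (1.56, 0.67 to 2.56). Leaving out the high nuclei gave 4 lower and 2 higher. The relation of these markers to the Cybb level was not tested. Without nuclei that showed at least 3 markers of another class, Cybb stood at 0 UMIs in Tgfbr2-cKO and 13 in ADWA11.

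Of 9 cytokine genes, 3 were at least 2-fold higher in Tgfbr2-cKO neutrophils and 0 lower, with a median of 0.48, where 16.6% and 16.0% of all genes were. Without the high nuclei 0 were higher and 2 lower, where 14.2% and 10.9% of all genes were, and the median turned to −0.40. Il1b (−0.17, −0.37 to 0.03) and Cxcl2 (−0.20, −0.49 to 0.08) did not differ beyond counting error, and were −0.61 and −1.07 without the high nuclei. Ccl6, a CC chemokine of myeloid cells, stood at 1.61 (0.90 to 2.39) and turned to −1.25 without them, and Ccl4 went from 1.09 to 0.17. Nlrp3, the sensor of the inflammasome that matures interleukin 1β, stood at 1.03 (0.18 to 1.95) and at 0.20 without them.

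Transcription factor genes were higher in 6 of 12 cases and lower in 0, with a median of 0.82, and higher in 2 and lower in 0 without the high nuclei, near the share of all genes. Cebpb, which drives granulocyte production in emergencies, stood at 1526 against 391 CPM (1.97, 1.52 to 2.44), the AP-1 gene Junb at 1078 against 359 CPM (1.59, 1.11 to 2.09) and Klf2 at 2.12 (1.14 to 3.25). Without the high nuclei these were 0.87, 1.31 and 1.69. Spi1, which encodes PU.1, was within counting error of equal at 0.55 (−0.05 to 1.18). Of 7 genes of NF-κB signalling, 0 were higher and 1 lower, Nfkb1 at −1.08 (−1.82 to −0.35), and 1 was higher and 2 lower without the high nuclei.

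Glycolytic genes were higher in 3 of 9 cases, Pgk1 (1.79), Ldha (1.70) and Pkm (1.69), where 16.6% of all genes were higher. Pfkfb4 was lower, with 26 UMIs (148 CPM) against 37 (295 CPM), where 16.0% of all genes were lower. Without the high nuclei 1 of the 9 was higher, Pkm at 1.18, and 0 were lower, where 14.2% and 10.9% of all genes were. Of 9 survival genes, 0 were at least 2-fold higher and 1 lower. By intervals that left out 0, 4 were lower and 1 higher, where 594 of all 2298 genes were lower and 422 higher. The lower genes were Casp4, the receptor caspase for intracellular lipopolysaccharide, at −1.59 (−2.39 to −0.83), the cytokine receptor subunit gene Csf2rb at −0.81, Birc3, an inhibitor of apoptosis, at −0.75 and Csf3r at −0.24, which turned to 0.15 without the high nuclei. Mcl1, on which neutrophil survival depends, was higher at 1277 against 694 CPM (0.88, 0.52 to 1.25) and stood at 0.14 without the high nuclei. Of 4 interferon-stimulated genes measured, 2 were higher and 1 lower, where 16.6% and 16.0% of all genes were. Isg15 stood at 3.90 (2.29 to 6.22), Rsad2 at 1.23 (0.18 to 2.42) and Slfn4 at −0.74 (−1.09 to −0.39). Without the high nuclei 0 were higher and 1 lower, with a median of −0.80. Of 6 genes linked with tissue neutrophils, 2 were higher and 1 lower, with a median of 0.09, where 16.6% and 16.0% of all genes were. The tetraspanin gene Cd63 stood at 1.35 (0.56 to 2.22) and the chemerin receptor gene Ccrl2 at 1.01 (0.41 to 1.65), and Cd274, which encodes the checkpoint ligand PD-L1, was the lower gene at −1.77 (−2.78 to −0.84) and −1.76 without the high nuclei, where Cd63 stood at 1.39, Ccrl2 at 0.80 and 1 of the 6 was higher and 2 lower.

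TGFβ pathway genes were of interest because one perturbation removes a TGFβ receptor from fibroblasts and the other blocks an activator of the ligand. Among 10 pathway genes in the neutrophils, 0 were at least 2-fold higher in Tgfbr2-cKO than in ADWA11 and 1 was lower, with a median of −0.15 that turned to 0.07 without the high nuclei. Tgfbr1, the signalling receptor, was seen in 7 of 12 Ctrl, 20 of 61 ADWA11 and 26 of 44 Tgfbr2-cKO neutrophils, and its level was 407 against 397 CPM in the 2 perturbed lesions. Tgfbr2, the floxed gene, was seen in 1, 18 and 11 neutrophils, and its ratio of −0.55 (−1.40 to 0.30) did not separate the Tgfbr2-cKO from the ADWA11 neutrophils. Smad4, the shared mediator, was the lower gene at −1.23 (−2.26 to −0.25). In fibroblast-marker nuclei, the intended target, Tgfbr2 stood at 311 CPM in Ctrl, 234 in ADWA11 and 226 in Tgfbr2-cKO at 7 dpi. At 21 dpi it stood at 217, 191 and 180 CPM in the same order. The ADWA11 fibroblasts, from wild-type mice, were thus below Ctrl as well, and these levels do not show the deletion. The 3′ reads of a floxed gene need not cover the deleted part.

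Across all 2298 genes, the largest increases in Tgfbr2-cKO neutrophils by the rule for named genes were Ptprd (5.18), Dpp10 (4.60), Prdx5 (4.51), Ost4 (4.37), Sh3bgrl3 (4.19), Serf2 (4.14), Ubb (4.06), S100a11 (3.99), Gng5 (3.97) and Elob (3.97). Ptprd and Dpp10 are neuronal surface proteins, and they were also higher in all other nuclei of the Tgfbr2-cKO library, at 3.53 and 6.87. S100a11 stood at 0.71 without the high nuclei. The 8 neuron markers of the list summed to 19 UMIs (108 CPM) in Tgfbr2-cKO and to 16 UMIs (128 CPM) in ADWA11 neutrophils. The 16 ADWA11 UMIs all lay in a single nucleus of 10723 UMIs, which showed 5 of the markers. In Tgfbr2-cKO the markers were spread over more nuclei, with Syt1 seen in 8 neutrophils against 1 in ADWA11. Of the astrocyte markers, the 3 measured were higher, among them Slc1a2, the glial glutamate transporter gene, at 112 UMIs in Tgfbr2-cKO and 0 in ADWA11, at least 26.6-fold higher at a floor of 3 counts.

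By the same rule for named genes, the largest decreases were Col1a1 (−5.58), Airn (−3.12), Frmd4b (−2.95), Hk3 (−2.81), Cd80 (−2.39), Slc49a4 (−2.21), Mtpn (−2.19), Stard7 (−2.08), Klra17 (−2.05) and Srsf3 (−2.02). Mrc1 at −6.02 and Cybb at −5.85 had lower ratios but are not among the genes that pass this rule. Col1a1 was lower in all other Tgfbr2-cKO nuclei as well, at −4.41, in the library with few fibroblasts. Frmd4b turned to 0.59 without nuclei that showed at least 3 markers of another class, where 4 against 2 UMIs were left. Hk3, the hexokinase of myeloid cells, rested on 8 against 40 UMIs, and Cd80, a costimulatory ligand, on 15 against 56 UMIs.

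The depth of the series sets what these neutrophils can show. The 6 libraries held 64798965 to 140310354 UMIs, with a median of 4620 to 8542 UMIs per passing nucleus, whereas the neutrophils held a median of 1483. Between pairs of libraries, 561 barcodes were shared, 0 of them neutrophils in both, and 1 neutrophil barcode also occurred in another library. Fewer neutrophils and less RNA per neutrophil cannot be told apart where a nucleus falls below 3 detected genes.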

How the data were processed

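Nuclei were isolated from dissected PT lesions, sorted on DAPI and sequenced with 10x Genomics 3′ v3.1 chemistry. The deposited matrices hold UMI counts per gene and barcode, made by the authors with Cell Ranger on mm10, version 7.2.0 per the file headers and 7.1.0 per the submitters' processing notes, with 32285 features. No other normalization had been applied. Each of the 6 libraries is 1 group and no columns were left unmapped.

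Barcodes with at least 500 UMIs and under 5% mitochondrial UMIs were kept, and neutrophils were taken by the 7 genes and 4 exclusion genes given above. The members, marker lists and gene lists were chosen with earlier results of these data known. The wider set without exclusion genes, and the comparison of Tgfbr2-cKO with ADWA11 gene levels, were added after seeing the data. A class such as macrophage-marker nuclei means at least 3 detected markers of its list, more than of any other class, and fewer than 3 genes of the rule. Doublets were called per library by simulating 2 doublets per nucleus over 2000 variable genes, marking 0.8% of nuclei per 1000 passing nuclei by rank, which fixes the rate in advance.

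Shares carry Clopper-Pearson intervals, summed UMIs exact Poisson intervals, and ratios exact conditional binomial intervals. PCR duplicates are collapsed by UMIs, and intervals cover counting error only. With 1 library per group no test was made and no p-value is given. A ratio against 0 UMIs is a bound at a floor of 3 counts over the group. CPM are per 1000000 non-mitochondrial UMIs summed over a library's neutrophils. Gene-level ratios required 30 nuclei in both libraries, so those against Ctrl were not made, and a gene needed 30 UMIs over both.

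Genes are named when they belong to a list, or when they are among the 10 largest ratios in either direction, detected in at least 10% of neutrophils of the higher library, with no nucleus above 20% of the UMIs, an interval that leaves out 0, and outside mitochondrial, Xist, Tsix, Y-linked and rule genes. Genes raised over all other nuclei are the 20 largest mean CPM ratios among genes with at least 50 UMIs. Gene positions are from GENCODE M21, matched by identifier for 32235 features, and promoters from RefSeq GRCm38.p6. Some genes of the lists are not reported here by name. The ratio code was tested on simulated data. Python 3.11.15, numpy 2.4.6, scipy 1.17.1, pandas 2.3.3, scikit-learn 1.9.0 and, for TMM scaling alone, R 4.3.3 with edgeR 4.0.16 were used.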

Additional observations from a re-analysis of the deposited data

Results flagged for a closer look

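The ADWA11 neutrophil share lay on opposite sides of the Ctrl share at the 2 time points. Its log2 ratio to Ctrl was −0.43 at 7 dpi, from 4 against 4 nuclei with an interval that includes 0, and 2.41 at 21 dpi, from 61 against 12 nuclei. With 1 library per condition and time, the difference between the time points was not tested. Without the exclusion genes the same ratios were −0.11 and 2.07.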

How the results depend on the processing

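All values in this paragraph on shares are log2 ratios, and alternatives without exclusion genes or with another set of them were chosen after seeing the data. For Ctrl, 21 against 7 dpi, the ratio was 0.88 and 21 of 22 alternatives stayed within its interval, the exception being −2.20 in female nuclei, and the interval, which included 0, left it out in 6 of 22, 5 of them with Col1a2 or all exclusion genes ignored, at 1.20 to 1.84, and the other with nuclei free of exclusion genes as the denominator, at 2.00. For Tgfbr2-cKO against Ctrl at 7 dpi it was 1.38, and 15 of 22 stayed within the interval, while the sign turned in 11 of 22. The interval left out 0 in 4 of 22, at 2.77 without neural classes in the denominator, 2.13 of Ptprc-positive nuclei, 1.52 with at least 2 of the 7 genes and 3.03 at a mitochondrial limit of 1%. It was −0.20 without exclusion genes, −0.08 without Col1a2 among them, −0.29 with nuclei free of exclusion genes as the denominator and −0.05 without exclusion genes with at least 2 of the 5 genes other than S100a8 and S100a9. It left the interval at −1.46 after thinning to 1000 UMIs, −0.43 without nuclei with 3 or more markers of another class and −0.54 in female nuclei, and, without exclusion genes, at −1.16 without such nuclei, −0.71 without doublets, −1.54 in female and −1.98 in male nuclei. For Tgfbr2-cKO against Ctrl at 21 dpi it was 2.87, and 14 of 22 stayed within the interval. It was 1.26 without exclusion genes, 1.15 without Col1a2 among them, and 0.30 (−0.64 to 1.36) with nuclei free of all 4 exclusion genes as the denominator. Without exclusion genes it was 1.17 of Ptprc-positive nuclei, 1.25 without nuclei with markers of another class, 1.28 without doublets, 1.29 with at least 2 of the 5 genes other than S100a8 and S100a9, and −0.45 in female nuclei. For ADWA11 against Ctrl all 21 alternatives at 7 dpi stayed within the interval, and at 21 dpi 19 of 22 did, the others being 3.96 in female nuclei, 1.47 with nuclei free of exclusion genes as the denominator, and 1.22 without exclusion genes of Ptprc-positive nuclei. The count of genes at least 2-fold higher in Tgfbr2-cKO than ADWA11 neutrophils was 382, and it was 137 of 810 genes past the minimum without nuclei with 3 or more markers of another class, 148 of 1653 without nuclei with 100 or more S100a8 and S100a9 UMIs and 1774 of 13824 with no UMI minimum, and the count at least 2-fold lower was 367, and 111, 185 and 2062 in the same order. Over the genes of the main comparison, leaving out nuclei with 100 or more of those UMIs gave 326 higher and 250 lower of 2292. Among the named genes, 88 of 100 alternatives stayed within the interval and 1 turned sign, Frmd4b at 0.59. The cause of these changes was not tested, other than that leaving out nuclei leaves fewer genes past the minimum. Gene levels against Ctrl have no alternatives, since those ratios were not made. No paired analysis was possible because each group was 1 library. The female and male values above leave out 1 of the 2 mice of each library, over the nuclei that could be assigned. Depth limits detection of genes in neutrophils of about 1483 UMIs, so absence of a UMI does not show absence of a transcript.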

Other observations

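Chemokines that attract neutrophils through Cxcr2 were read in other nuclei of the lesion. In fibroblast-marker nuclei at 21 dpi, Cxcl5 stood at 1.97 CPM in Ctrl, 22.3 in ADWA11 and 43.2 in Tgfbr2-cKO, and Cxcl1 at 2.72, 21.3 and 14.5 CPM. The log2 ratios to Ctrl were 3.50 (3.15 to 3.86) and 4.45 (4.08 to 4.84) for Cxcl5, and 2.97 (2.67 to 3.28) and 2.41 (2.00 to 2.82) for Cxcl1, for ADWA11 and Tgfbr2-cKO in turn. The direction of Cxcl1 was not shared by other nuclei of Tgfbr2-cKO. Over all nuclei outside the wider set of neutrophils Cxcl1 stood at 3.26 CPM in Ctrl, 9.92 in ADWA11 and 1.88 in Tgfbr2-cKO, with log2 ratios to Ctrl of 1.61 (1.40 to 1.81) and −0.80 (−1.12 to −0.48), and in macrophage-marker nuclei the Tgfbr2-cKO ratio was −2.11 (−3.65 to −0.85). For Cxcl5 the ratios over the same nuclei outside that set were 1.69 (1.49 to 1.90) and 1.15 (0.93 to 1.38). Fibroblast-marker nuclei made up 9.79% of the 21 dpi Tgfbr2-cKO library, and the part of this in these levels was not tested. At 7 dpi Cxcl5 was also higher in fibroblast-marker nuclei, at 0.220 CPM in Ctrl from 4 UMIs, 8.58 in ADWA11 from 252 UMIs and 13.1 in Tgfbr2-cKO from 29 UMIs. Cxcl1 stood there at 0.991, 2.15 and 0.907 CPM in the same order, from 18, 63 and 2 UMIs.

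Macrophage-marker nuclei differed between the perturbations at 21 dpi. Cxcl2 stood there at 3.03 CPM in Ctrl, 14.9 in ADWA11 and 0.701 in Tgfbr2-cKO, with log2 ratios to Ctrl of 2.30 (1.94 to 2.67) and −2.11 (−3.13 to −1.22). At 7 dpi Cxcl2 stood in macrophage-marker nuclei at 0.233, 1.03 and 3.23 CPM in the same order, from 8, 60 and 62 UMIs. Its log2 ratios to Ctrl were then 2.14 (1.07 to 3.42) and 3.79 (2.73 to 5.07), so the Tgfbr2-cKO direction was opposite at the 2 times. Csf3, which encodes G-CSF, stood at 0.156, 1.39 and 0.448 CPM in fibroblast-marker nuclei of the 21 dpi libraries, from 6, 42 and 3 UMIs, and the Tgfbr2-cKO ratio to Ctrl of 1.53 (−1.10 to 3.75) had an interval that included 0. In endothelial-marker nuclei, Icam1, an adhesion ligand for neutrophil integrins, stood at 50.7, 52.5 and 113 CPM, and Selp, which encodes P-selectin, at 55.4, 89.9 and 27.7 CPM. A pair of adhesion genes of these nuclei was lower in both perturbed lesions, with Vcam1 at 390, 290 and 174 CPM and Sele, which encodes E-selectin, at 29.4, 12.2 and 1.98 CPM from 43, 13 and 1 UMIs. Their log2 ratios to Ctrl were −0.43 (−0.63 to −0.22) and −1.17 (−1.51 to −0.84) for Vcam1 and −1.27 (−2.29 to −0.35) and −3.90 (−9.23 to −1.34) for Sele. Icam2 stood at 40.4, 25.3 and 47.4 CPM, with intervals of both ratios that included 0. These levels rest on 1 library per condition, and their relation to the neutrophil share was not tested.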
